A study of Mus musculus with 6 samples.

Results

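The genes of the proteasome were described in mouse haematopoietic stem and progenitor cells of the cKit+Sca1+Lin- (KSL) fraction, the part of the bone marrow that holds the stem cells. Genes were taken by symbol, as Psma, Psmb, Psmc, Psmd, Psme, Psmf or Psmg followed by a digit, from probe sets annotated with exactly 1 gene. This gave 50 of 19938 genes measured. The genes were selected on their symbols, and where a gene had several probe sets the one read was chosen by its mean signal over the 6 arrays of both groups. Of the 50 genes, 48 encode parts, activators, inhibitors or assembly factors of the proteasome. The other 2 genes, Psmc3ip and Psme3ip1, encode proteins named for an interaction with a proteasome protein, are no subunits and are given apart.

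The DKO group held 3 samples from Runx1 fl/fl, Runx3 fl/fl mice with the Mx1-Cre transgene, and the WT group 3 samples from littermates with the same floxed alleles and without the transgene, all backcrossed to C57BL/6 for 3 generations or more. The Mx1 promoter that drives the recombinase answers to interferon. Per the labels' protocols, mice were given 600 µg of pIpC, a double-stranded RNA analogue that induces interferon, on 7 alternate days from 4 weeks of age, and the text is the same for both groups. The sample descriptions call the cells untreated, and the labels do not settle how this goes with the injections. The deletion and the transgene cannot be told apart in this design. Per the series text each WT sample was pooled from 3 mice; pooling of the DKO samples is not stated, and the same text counts 6 mice in all.

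Values are log2 signals of single arrays, so a difference of 1 is a 2-fold change, and ± is the SD of 3 samples. Differences are DKO minus WT, and a gene is said to have risen or fallen where limma's p, adjusted over all 19938 genes, was under 0.05. Runx1 signal was 9.29 ± 0.08 in DKO and 8.47 ± 0.08 in WT, and Runx3 signal was 7.38 ± 0.03 and 7.53 ± 0.06. A signal averaged over a whole transcript does not check a deletion of some exons, so each direction given is that of the labels. Of 8 measured markers of stem and progenitor cells, of which only Kit belongs to the gate itself, 4 rose (Kit by 0.73, Ly6e by 0.31, Slamf1 by 1.95 and Cd48 by 1.46) and 2 fell (Flt3 at -1.32 and Mecom at -0.67), while Ly6a, which encodes Sca1, was not analysed here. Of 36 measured markers of B, T and NK, granulocytic, macrophage and erythroid cells, Cr2 rose (0.48) and Klf1 fell (-0.54), and the other 34 did not pass. Over all genes 9.71% rose and 7.69% fell, and in the 10% with the strongest signal 29.2% and 8.98%. Mean signals of the lists of these 36 markers ran from 4.60 to 6.22 over the arrays, with granulocyte markers at 5.03 to 5.13 in DKO and 5.15 to 5.63 in WT, and 7 of their 8 genes lower in DKO. The part of these shifts in the results on the proteasome genes was not tested. In such bulk samples fewer cells of a type and less RNA per cell cannot be told apart.

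The proteasome is the protease that degrades proteins tagged with ubiquitin. Its core particle is a barrel of outer rings of alpha subunits (Psma) around inner rings of beta subunits (Psmb), of which Psmb5, Psmb6 and Psmb7 carry the catalytic sites. Interferons induce Psmb8, Psmb9 and Psmb10, which take the places of Psmb5, Psmb6 and Psmb7 in the immunoproteasome of blood and immune cells and alter the peptides made for MHC class I. The regulatory particle at the ends of the barrel binds ubiquitin chains and unfolds substrates through a ring of ATPases (Psmc) and a set of other subunits (Psmd). Psme genes encode other activators, Psmf1 an inhibitor, and Psmg genes chaperones that build the alpha ring.

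Of the 48 proteasome genes 12 rose, 3 fell and 33 did not pass. The rises were 25% of the members beside 9.71% of all genes, and the falls 6.25% beside 7.69%. Since proteasome genes have strong signals and strong genes rose more often on these arrays, the share among strong genes is the closer background. In the 10% of genes with the strongest signal the rises were 29.2% and the falls 8.98%. Among these were 35 of the 48 members, of which 9 rose (25.7%), near that background, and 0 fell by limma's adjusted p, with 3 lower at an unadjusted p under 0.05. The other 13 members held 3 rises and 3 falls, 23.1% each, beside 9.71% and 7.69% of all genes. The share among all genes outside the strongest 10% was not computed. The median difference of the 48 was 0.07 (-0.67 to 0.76) beside -0.04 over all genes and 0.12 over the strongest 10%. It was -0.03 under quantile normalisation, -0.02 with the trend over signal removed and 0.0022 under cyclic loess, so its sign depends on the scaling. All 3 DKO values lay above all 3 WT values in 15 members (16.2% of all genes) and below them in 7 (19.6% of all genes). Of the 35 members with the strongest signals 12 lay above and 4 below, beside 43% and 17.3% of the strongest 10% of genes. Changes thus went in both directions, and no difference between letter groups was tested.

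**Figure D1:**
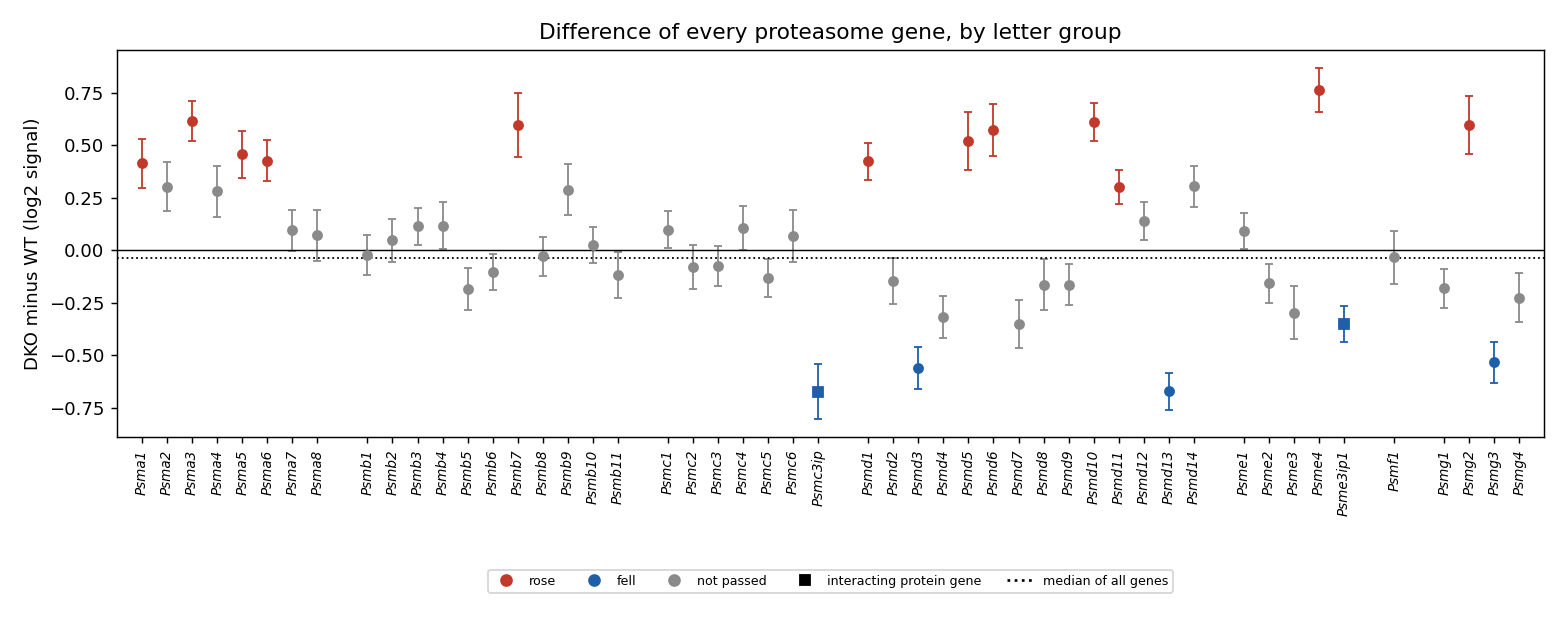
Difference of each of the 50 genes in log2 signal, DKO minus WT, with its standard error as a bar, ordered by letter group, where squares mark Psmc3ip and Psme3ip1 and the dotted line is the median of all genes at -0.04. All 8 Psma genes lie above 0, the 6 Psmc subunits stay between -0.13 and 0.10, and the Psmd genes spread from -0.67 to 0.61.

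Promoters are printed for the proteasome genes whose call was kept under all 19 alternative settings other than the threshold, where RefSeq windows of GRCm38.p6 (250 bases before to 50 after a gene's start) held them: Psma3, Psmd10 and Psme4 among the rises, Psmd13 and Psmg3 among the falls. Psmd3 was the other such gene, with no window in the table used. Capitals mark matches, on either strand, to CCAAT (the box bound by NF-Y), TGACNNNGC (the core bound by Nfe2l1 and Nfe2l2 with small Maf proteins), TGTGGT (the core bound by Runx proteins), GAAA followed after NN by GAAA (the paired GAAA motif, bound by interferon regulatory factors), CCGGAAG (bound by ETS proteins) and GGGCGG (bound by Sp1). Where matches overlap or touch they form 1 run of capitals.
Psma3, chr12:70974373-70974672, plus strand: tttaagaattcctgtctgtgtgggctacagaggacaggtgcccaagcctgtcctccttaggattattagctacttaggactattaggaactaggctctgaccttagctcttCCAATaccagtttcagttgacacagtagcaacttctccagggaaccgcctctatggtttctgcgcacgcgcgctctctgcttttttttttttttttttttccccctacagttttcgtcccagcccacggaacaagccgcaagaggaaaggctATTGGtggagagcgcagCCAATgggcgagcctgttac
Psmd10, chrX:140956662-140956961, minus strand: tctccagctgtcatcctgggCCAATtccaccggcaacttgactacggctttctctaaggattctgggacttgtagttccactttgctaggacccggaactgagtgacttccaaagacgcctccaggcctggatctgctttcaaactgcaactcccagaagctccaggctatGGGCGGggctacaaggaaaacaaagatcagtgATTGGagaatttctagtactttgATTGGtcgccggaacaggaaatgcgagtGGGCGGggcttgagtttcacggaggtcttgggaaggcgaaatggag
Psme4, chr11:30771525-30771824, plus strand: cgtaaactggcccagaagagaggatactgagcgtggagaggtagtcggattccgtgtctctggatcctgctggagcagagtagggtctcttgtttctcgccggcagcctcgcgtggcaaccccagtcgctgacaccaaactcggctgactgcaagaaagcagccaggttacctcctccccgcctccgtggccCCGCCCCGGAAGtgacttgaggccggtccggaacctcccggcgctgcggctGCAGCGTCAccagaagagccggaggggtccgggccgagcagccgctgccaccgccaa
Psmd13, chr7:140882144-140882443, plus strand: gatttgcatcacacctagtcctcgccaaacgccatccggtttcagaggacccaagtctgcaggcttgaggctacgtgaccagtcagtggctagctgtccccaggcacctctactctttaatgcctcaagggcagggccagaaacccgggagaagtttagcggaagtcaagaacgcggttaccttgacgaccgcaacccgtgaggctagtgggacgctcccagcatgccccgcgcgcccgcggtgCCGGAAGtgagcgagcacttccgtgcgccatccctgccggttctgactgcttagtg
Psmg3, chr5:139826845-139827144, minus strand: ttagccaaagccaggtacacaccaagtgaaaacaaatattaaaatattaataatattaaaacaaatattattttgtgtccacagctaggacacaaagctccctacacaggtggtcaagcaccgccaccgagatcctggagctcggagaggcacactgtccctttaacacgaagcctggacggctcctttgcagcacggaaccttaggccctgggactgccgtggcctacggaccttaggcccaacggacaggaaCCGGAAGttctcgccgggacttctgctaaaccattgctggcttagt
The windows of Psma3 and Psmd10 each hold CCAAT boxes 3 times, and Psmd10 has GGGCGG as well. CCGGAAG is in the windows of Psme4, Psmd13 and Psmg3, so it is shared by a rise and by both falls. None of the 5 windows holds TGTGGT or the paired GAAA motif.

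Windows were found for 40 of the 48 members. CCGGAAG was present in 14 of these 40 (35%), beside 9.93% of 27025 genes with windows, and GGGCGG in 23 (57.5%) beside 38.2%. CCAAT was present in 14 (35%) beside 41.06%, TGACNNNGC in 6 (15%) beside 13.99%, TGTGGT in 6 (15%) beside 18.92% and the paired GAAA motif in 5 (12.5%) beside 3.99%. By direction, CCGGAAG was in 4 of 10 risen, 2 of 2 fallen and 8 of 28 other members, and TGTGGT in 1 of 10, 0 of 2 and 5 of 28. The risen gene with TGTGGT was Psma6, and Psmb5 and Psmb10 were among those that did not pass. These are descriptions of letters in a short window and say nothing of binding.

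Psma genes encode the outer, alpha ring of the core particle. Of 8 Psma genes 4 rose, beside 9.71% of all genes and 29.2% of the strongest 10%, and 4 did not pass; 0 fell by limma's adjusted p, and 0 were lower at an unadjusted p under 0.05. Their median difference was 0.36. Psma3 rose most: its signals were 11.44, 11.36 and 11.47 in DKO replicates 1 to 3 and 10.74, 10.96 and 10.72 in WT. The groups did not overlap, and the rise was 0.62 (SE 0.0955, adjusted p = 0.00254, 1.53-fold). Psma3 has 3 probe sets with 1 symbol, and the other 2 gave differences of 0.60 and 0.63. By their numbers only the one at 0.60 lies among probe sets of chromosome 12, where Psma3 lies. The one read for the gene lies elsewhere, so the 3 may not be independent readings of Psma3. Psma5 was at 10.78, 10.51 and 10.89 in DKO and 10.28, 10.34 and 10.19 in WT, a rise of 0.46 (SE 0.112, adjusted p = 0.021), and its dimmer probe set differed by 0.37. By its number the brighter probe set, the one read, lies away from the probe sets of chromosome 3, where Psma5 lies. The RefSeq table lists a pseudogene Psma5-ps, so which copy feeds the brighter probe set is uncertain.

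Psma6 signals were 11.05, 10.93 and 11.07 in DKO and 10.73, 10.58 and 10.46 in WT, a rise of 0.43 (SE 0.0986, adjusted p = 0.0165). Psma1 rose least of the 4, by 0.41 (SE 0.116, adjusted p = 0.0378), with 10.24, 9.96 and 10.23 in DKO and 9.67, 9.92 and 9.61 in WT. In both genes the groups did not overlap, but in Psma1 DKO replicate 2 and WT replicate 2 were nearly level. Psma2 and Psma4 did not pass, at 0.30 and 0.28 (adjusted p = 0.114 and 0.157). Psma2 passed without WT replicate 1 (0.40, adjusted p = 0.0485; 0.0485 to 0.399 over its alternatives). Psma7 differed by 0.09 (95% confidence interval -0.12 to 0.31), and Psma8, the form of the testis, by 0.07 at a signal of 6.81.

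The calls of Psma1, Psma5 and Psma6 were lost without DKO replicate 1 (adjusted p = 0.131, 0.0784 and 0.0634), without DKO replicate 3 (0.133, 0.0849 and 0.0673) and without WT replicate 3 (0.115, 0.0671 and 0.0533), and that of Psma1 also without WT replicate 1 (0.0864) and with cyclic loess (0.0617). Over all alternatives the adjusted p of these genes ran from 0.0201 to 0.133, from 0.0101 to 0.12 and from 0.00579 to 0.183. With the trend over signal removed Psma3 and Psma6 remained called (0.55 and 0.35), Psma1 and Psma5 did not (0.30 and 0.37, adjusted p = 0.119 and 0.0524), and with the trend over signal and gene span removed Psma3 alone of the 4 did (0.43, adjusted p = 0.0151), where Psma1, Psma5 and Psma6 were at 0.32, 0.29 and 0.22.

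Of 11 Psmb genes 1 rose, beside 9.71% of all genes and 29.2% of the strongest 10%, and 10 did not pass. Their median difference was 0.02, with Psmb3 read from the brighter of 2 probe sets that disagreed. By limma's adjusted p 0 fell, with 0 lower at an unadjusted p under 0.05. The rise was that of Psmb7, the catalytic subunit with trypsin-like activity, at 9.69, 9.39 and 9.72 in DKO and 8.76, 9.34 and 8.90 in WT. DKO replicate 2 was only just above WT replicate 2. The rise was 0.60 (SE 0.153, adjusted p = 0.0256, 1.51-fold). It was lost without DKO replicate 1 (0.55, adjusted p = 0.0908) or 3 (0.54, 0.099), without WT replicate 1 (0.48, 0.0658) or 3 (0.55, 0.0811) and with the trend over signal (0.47, 0.0716) or over signal and span removed (0.38, 0.141), in a range of 0.00494 to 0.141. RefSeq also lists pseudogenes of Psmb7.

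The other constitutive catalytic subunits did not pass. Psmb5, with chymotrypsin-like activity, was at 9.70, 9.81 and 9.90 in DKO and 9.92, 10.14 and 9.90 in WT, a difference of -0.19 (adjusted p = 0.249, 95% confidence interval -0.41 to 0.04). Psmb6, with caspase-like activity, was at 10.08, 10.02 and 10.17 in DKO and 10.15, 10.24 and 10.19 in WT, a difference of -0.10 (adjusted p = 0.459). In Psmb5 and Psmb6 the highest DKO value reached into the WT range, so the groups overlapped.

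Of the 3 immunoproteasome subunits 0 passed the test by limma's adjusted p, and 1, Psmb9, had an unadjusted p under 0.05. Psmb8 signals were 9.50, 9.25 and 9.32 in DKO and 9.36, 9.41 and 9.39 in WT, a difference of -0.03 (adjusted p = 0.861, 95% confidence interval -0.24 to 0.18). Psmb10 signals were 8.18, 8.28 and 8.25 in DKO and 8.21, 8.28 and 8.15 in WT, a difference of 0.02 (adjusted p = 0.875, interval -0.17 to 0.21). For these genes a change beyond 0.24 in either direction lay outside the interval of the difference. Psmb9 was at 11.08, 10.61 and 10.96 in DKO and 10.63, 10.62 and 10.54 in WT, a difference of 0.29 (adjusted p = 0.143, interval 0.01 to 0.56). DKO replicates 1 and 3 were above all WT values and replicate 2 within them, and without DKO replicate 2 the gene was past the threshold (0.42, adjusted p = 0.0321, with up to 0.398 under other settings).

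**Figure D2:**
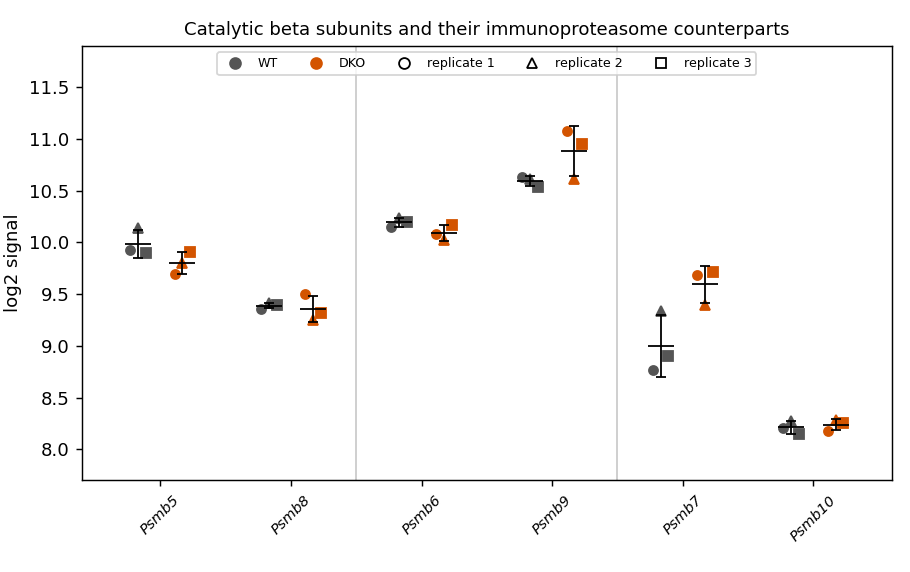
Log2 signal of the catalytic beta subunits Psmb5, Psmb6 and Psmb7, each beside the immunoproteasome subunit that replaces it, in WT (grey) and DKO (orange), with 1 point per sample, marker shape by replicate, and the mean with SD in black. Only in Psmb7 do all DKO points lie above all WT points; Psmb8 and Psmb10 means differ by -0.03 and 0.02.

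The balance within each exchange pair was read as the log2 difference of its 2 genes within an array, of which only the change between groups has meaning. Psmb9 minus Psmb6 was 1.00, 0.59 and 0.79 in DKO and 0.48, 0.38 and 0.35 in WT, higher by 0.39 with all DKO values above all WT values. Psmb10 minus Psmb7 was -1.50, -1.11 and -1.46 in DKO and -0.55, -1.06 and -0.75 in WT, a change of -0.57 with all DKO values below. Psmb8 minus Psmb5 changed by 0.16, with overlapping values. The exact permutation test, two-sided, gave p = 0.1, 0.1 and 0.5 for Psmb9, Psmb10 and Psmb8, the smallest p that 3 against 3 samples allow being 0.1 (0.15, 0.15 and 0.5 adjusted over the 3 pairs). With 3 against 3 samples this permutation test cannot pass 0.05, so it says nothing on whether the pairs changed.

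The remaining beta genes Psmb1, Psmb2, Psmb3, Psmb4 and the thymus form Psmb11 differed by -0.12 to 0.12. Psmb3, a structural beta subunit, has 2 probe sets that disagreed. The brighter was at 9.30, 9.13 and 9.28 in DKO and 9.16, 9.14 and 9.07 in WT, a difference of 0.11 (adjusted p = 0.431). The dimmer was at 8.45, 8.47 and 8.54 against 7.97, 8.24 and 7.91, a difference of 0.45 that was past the threshold when it stood for the gene (adjusted p = 0.0173, the lowest of all alternatives, with 0.973 the highest). By their numbers, the dimmer lies among probe sets of chromosome 11 genes, where Psmb3 lies, and the brighter among those of chromosome 16. The dimmer is thus the one placed with Psmb3, though what each reports was not tested.

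None of the 6 ATPase genes passed: 0 rose and 0 fell by limma's adjusted p, and 0 had an unadjusted p under 0.05. Psmc1 to Psmc6 encode the motor ring that unfolds substrates, and their differences ran from -0.13 (Psmc5) to 0.10 (Psmc4), with DKO and WT values overlapping in each. Psmc5 was at 10.30, 10.17 and 10.23 in DKO and 10.24, 10.45 and 10.41 in WT (adjusted p = 0.37, interval -0.34 to 0.07). The widest interval, that of Psmc6, reached from -0.21 to 0.34. Psmc1 was at 10.03, 10.01 and 9.95 in DKO and 10.01, 9.86 and 9.83 in WT (0.10, adjusted p = 0.511), and its further probe set differed by 0.03. The Psmc3ip gene fell by 0.67 (SE 0.132, adjusted p = 0.0076), from 7.56, 8.04 and 7.85 in WT to 7.16, 6.99 and 7.28 in DKO. It encodes Hop2, a protein of meiosis, and is no subunit of the ATPase ring.

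The Psmd genes, which encode the other regulatory particle subunits and their chaperones, moved both ways: 5 of 14 rose, 2 fell and 7 did not pass. Over all genes 9.71% rose and 7.69% fell, and of the strongest 10% of genes 29.2% and 8.98%. Of 8 lid subunits with Psmd symbols, which hold the deubiquitinating module, 2 rose and 2 fell. The lid subunit Sem1 has another symbol and is given below with the partner genes. Psmd6 rose by 0.57 (SE 0.124, adjusted p = 0.0121), at 10.11, 10.11 and 10.22 in DKO and 9.57, 9.82 and 9.33 in WT. Psmd11, a lid subunit linked to high proteasome activity in embryonic stem cells, rose by 0.30 (adjusted p = 0.0305), with 8.45, 8.43 and 8.50 against 8.13, 8.16 and 8.19. Its groups were tight and well apart, yet its call was lost without any 1 of the 6 samples (adjusted p = 0.0886, 0.0726 and 0.106 without DKO replicates 1 to 3, and 0.0651, 0.0577 and 0.0566 without WT replicates 1 to 3) and with quantile normalisation (0.17, 0.187), cyclic loess (0.20, 0.139) or either trend removed (0.18 and 0.13, 0.179 and 0.33); the lowest of all alternatives was 0.0173.

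Psmd13 and Psmd3, both lid subunits, fell. Psmd13 signals were 7.86, 7.76 and 7.89 in DKO and 8.54, 8.42 and 8.56 in WT, a difference of -0.67 (SE 0.0878, adjusted p = 0.00108), the smallest adjusted p of all members. Psmd3 signals were 6.66, 6.55 and 6.80 in DKO and 7.18, 7.17 and 7.35 in WT, a difference of -0.56 (SE 0.0988, adjusted p = 0.00455). In both genes every DKO value lay below every WT value by more than the range within a group. The lid deubiquitinase gene Psmd14 differed by 0.30 and its partner Psmd7 by -0.35, neither passing (adjusted p = 0.0628 and 0.0604). Psmd7 was past it under quantile normalisation (-0.48, adjusted p = 0.0165), under cyclic loess (-0.46) and with either trend removed (-0.49 and -0.40), up to 0.194 elsewhere, and Psmd14 passed without the dimmest genes (adjusted p = 0.0492 and 0.0399) while it was at 0.04 with the trend over signal and span removed (0.836). Psmd8 and Psmd12 differed by -0.16 and 0.14.

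Of the 3 base subunits with Psmd symbols, Psmd1, a large scaffold, rose by 0.42 (SE 0.0881, adjusted p = 0.00998), at 9.60, 9.53 and 9.61 in DKO and 9.07, 9.26 and 9.14 in WT. Its value was 0.29 with the trend over signal removed (adjusted p = 0.0515) and 0.18 with the trend over signal and span removed (0.225, in a range of 0.00581 to 0.225). Psmd2, the other large scaffold, differed by -0.15, and by -0.05 on its other probe set. The ubiquitin receptor gene Psmd4 was lower in all 3 DKO samples, at 8.43, 8.38 and 8.35 against 8.55, 8.72 and 8.85, with a difference of -0.32, short of the threshold (adjusted p = 0.054). Psmd4 passed under 9 of 19 alternatives, among them quantile normalisation (-0.46, adjusted p = 0.0141) and without WT replicate 1 (-0.40, 0.0226), in a range of 0.0141 to 0.156.

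Of the 3 chaperones that assemble the ATPase base, 2 rose, beside 9.71% of all genes and 29.2% of the strongest 10%. Psmd10, also known as gankyrin, was at 9.59, 9.65 and 9.54 in DKO and 8.88, 9.08 and 8.99 in WT, a rise of 0.61 (SE 0.0893, adjusted p = 0.00193, 1.53-fold). The gap between the groups was wider than the range within either. Psmd5 was at 7.47, 7.42 and 7.62 in DKO and 7.26, 7.00 and 6.70 in WT, a rise of 0.52 (SE 0.137, adjusted p = 0.0289). The WT samples of Psmd5 were spread widely, and its call was lost without any 1 of DKO replicates 1, 2 and 3 (adjusted p = 0.0765, 0.0592 and 0.11) or WT replicates 2 and 3 (0.0578 and 0.0729), in a range of 0.00721 to 0.11. Psmd9 differed by -0.17 (adjusted p = 0.287). The lid gene Psmd6 lost its call without DKO replicate 3 (0.53, adjusted p = 0.0541; lowest of its alternatives 0.00423).

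Among the activators, Psme4 rose most of all members. It encodes a large single-chain activator that binds the core particle without ubiquitin or ATP. Its signals were 8.82, 8.89 and 8.88 in DKO and 8.28, 8.12 and 7.90 in WT, a rise of 0.76 (SE 0.107, adjusted p = 0.0015, 1.70-fold), and 0.52 with the trend over signal and span removed (adjusted p = 0.011, the highest of its range from 0.00101). The 3 DKO values were close together, and the WT values spread more widely below them. Psme1 and Psme2, the interferon-inducible activator chains that accompany the immunoproteasome, did not pass, at 0.09 and -0.16 (adjusted p = 0.515 and 0.292). A probe set shared by Psme2 and its near-copy Psme2b differed by -0.14. Psme3, the nuclear form, was at 8.55, 8.56 and 8.66 against 8.70, 9.18 and 8.79, a difference of -0.30 (adjusted p = 0.14), with WT replicate 2 well above the rest. Under quantile normalisation Psme3 did pass (-0.43, adjusted p = 0.0273). So it did under cyclic loess (-0.41, 0.037) and without the trend over signal (-0.43, 0.0457), with 0.315 as the highest. Psme3ip1, whose protein binds Psme3, fell by 0.35 (adjusted p = 0.0213), from 8.26, 8.41 and 8.39 in WT to 8.06, 7.98 and 7.97 in DKO. That call was lost without DKO replicates 1, 2 or 3 (adjusted p = 0.0515, 0.0723 and 0.0773) or WT replicates 2 or 3 (0.0534 and 0.0606), in a range of 0.00633 to 0.0773.

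The inhibitor gene Psmf1 was at 6.13, 6.22 and 6.38 in DKO and 6.41, 6.02 and 6.41 in WT, a difference of -0.03 (adjusted p = 0.883, interval -0.32 to 0.25). The alpha ring chaperones work in pairs, Psmg1 with Psmg2 and Psmg3 with Psmg4. Of the 4, 1 rose and 1 fell, beside 9.71% and 7.69% of all genes. Psmg2 rose by 0.60 (SE 0.138, adjusted p = 0.0168), at 8.45, 8.48 and 8.77 in DKO and 7.80, 8.25 and 7.86 in WT. Psmg3 fell by 0.53 (SE 0.099, adjusted p = 0.00581), from 7.03, 7.21 and 7.10 in WT to 6.71, 6.58 and 6.45 in DKO. Their partners Psmg1 and Psmg4 did not pass, at -0.18 and -0.23 (adjusted p = 0.22 and 0.222). Psmg1 was past the threshold under quantile normalisation (-0.32, adjusted p = 0.0296) and under cyclic loess (-0.29, 0.0454), with 0.45 as its highest. The call of Psmg2 was lost without DKO replicate 3 (adjusted p = 0.0704) or WT replicate 3 (0.0585), and its lowest was 0.00518.

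**Figure D3:**
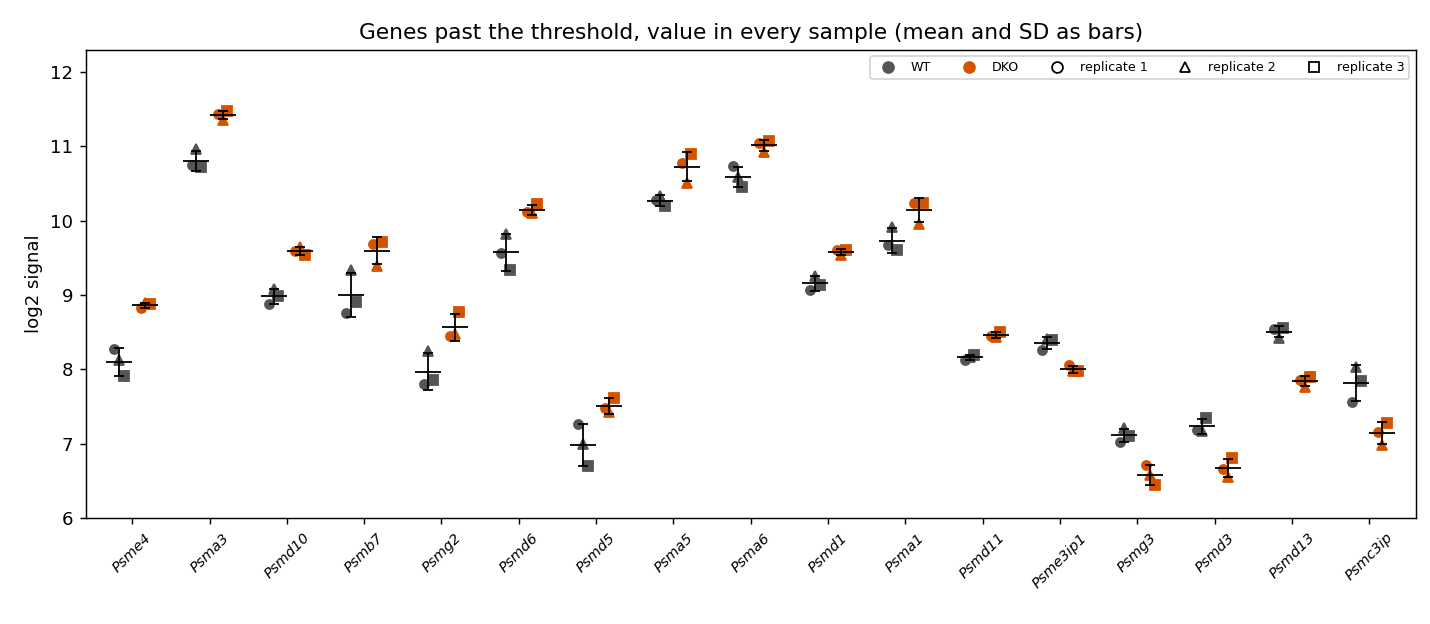
Log2 signal of the 17 called genes, ordered from the largest rise (Psme4, 0.76) to the largest fall (Psmc3ip, -0.67), in WT (grey) and DKO (orange), with 1 point per sample, marker shape by replicate, and the mean with SD in black. DKO and WT points do not overlap in any of the 17, and the gap is narrowest where DKO replicate 2 is low and WT replicate 2 high, as in Psma1 and Psmb7.

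Samples of a group varied together in these genes. Of the 48 proteasome genes, DKO replicate 2 was above the DKO mean in 7, beside 31 and 39 for DKO replicates 1 and 3. WT replicate 2 was above the WT mean in 37, beside 21 and 12 for WT replicates 1 and 3. The median deviations of the members were -0.08 in DKO replicate 2 and 0.05 in WT replicate 2, beside 0.0053 and -0.013 over all genes. Without DKO replicate 3 the rises numbered 4, without WT replicate 3 they numbered 5 and without DKO replicate 1 they numbered 6. Over all genes the rises fell in the same fits from 1936 to 1250, 1555 and 1391. The median difference of the members was 0.0097 without DKO replicate 3 and 0.12 without DKO replicate 2, the lowest and highest with 1 sample left out.

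Differences of the members also went with signal and gene span, as they did over all genes. Across the 48 members the Spearman rho was 0.38 with mean signal and 0.39 with the RefSeq span of the gene. Beside these stood 0.21 with signal over all 19938 genes and 0.15 with span over the 19856 genes with a span. These are descriptions across genes that share arrays. With the trend over signal removed 7 members rose and 6 fell, and with the trend over signal and span removed 6 rose and 5 fell. The part of signal strength and span in the single calls was not tested otherwise.

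**Figure D4:**
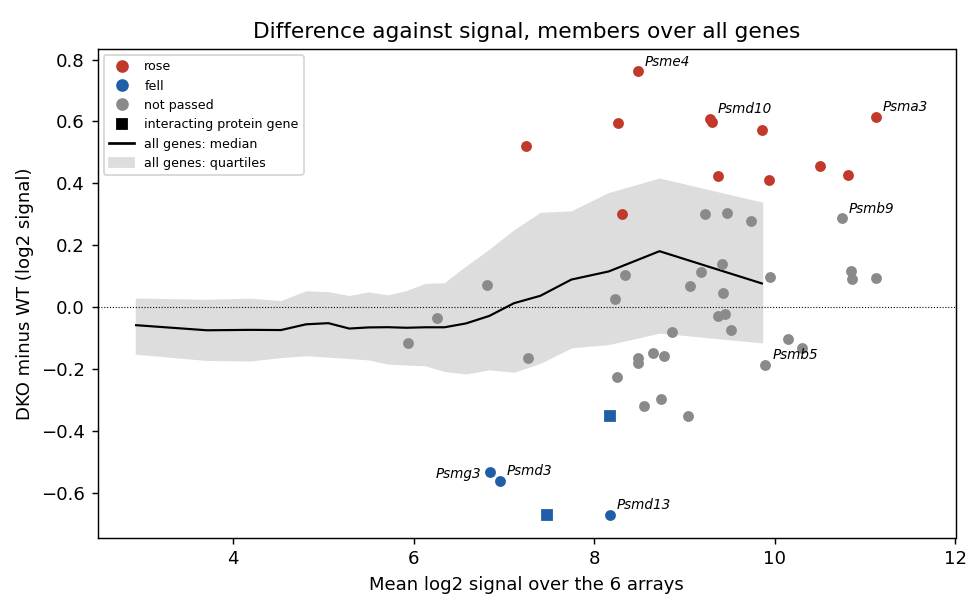
Difference in log2 signal, DKO minus WT, against the mean log2 signal over 6 arrays for the 50 genes, over the median (line) and quartiles (grey) of all 19938 genes in 20 bins of signal. The line is above 0 for genes with strong signals, where most members lie. Psme4 and Psmd10 lie above the grey band, Psmd13, Psmd3 and Psmg3 below it, and Psma3 to the right of its end.

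Genes that work with the proteasome were read from 5 lists, whose counts stand beside 9.71% of all genes that rose and 7.69% that fell. In the strongest 10% of genes these shares were 29.2% and 8.98%. Mean signals of the listed genes ran from 5.7 to 11.86, so many lie where rises were more frequent. Of 81 names, older symbols included, 60 were matched to a gene measured here. Of 16 measured partners and assembly factors 4 rose, 2 fell and 10 did not pass, with a median difference of 0.13. The rises were Akirin2, which brings proteasomes into the nucleus (0.45, adjusted p = 0.00581), Ecpas, an adaptor between core and regulatory particle (0.39, 0.0121), Usp14, a proteasome-bound deubiquitinase (0.41, 0.0128), and Zfand5, a proteasome activator (0.57, 0.0184). The falls were Sem1, a small lid subunit (-0.32, adjusted p = 0.0473), and the shuttle receptor Ubqln4 (-0.44, 0.0453). The falls of Sem1 and Ubqln4 were lost with median centring (adjusted p = 0.0571 and 0.0509), without DKO replicates 1 (0.0793 and 0.147), 2 (0.158 and 0.0634) or 3 (0.106 and 0.134) and without WT replicate 2 (0.11 and 0.0898), and that of Sem1 also without WT replicate 1 (0.0964) and with array weights (0.0581). That of Ubqln4 was also lost with cyclic loess (0.0627) and with either trend removed (0.0793 and 0.0798). Their lowest were 0.0101 and 0.0235. Akirin2 passed under all 19 alternatives, with adjusted p up to 0.0345. Without DKO replicate 3 the calls of Ecpas, Usp14 and Zfand5 were lost (adjusted p = 0.0555, 0.0576 and 0.0633, in ranges of 0.00691 to 0.368, 0.00757 to 0.089 and 0.0124 to 0.0674), and that of Zfand5 also without DKO replicate 2 (0.0673). All 3 were also lost with quantile normalisation (adjusted p = 0.0633, 0.0502 and 0.0674) and with the trend over signal removed (0.0752, 0.0601 and 0.0591). The call of Zfand5 was lost with cyclic loess as well (0.0585).

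Of 12 genes that act in the induction of proteasome genes 2 rose, 1 fell and 9 did not pass. Nfe2l2, a transcription factor of the oxidative stress response, rose by 0.49 (adjusted p = 0.00781), and Keap1, which targets the Nfe2l2 protein for degradation, fell by 0.43 (adjusted p = 0.00765), both past the threshold under all 19 alternatives. Nfya, a chain of NF-Y, rose by 0.32 (adjusted p = 0.0295), a call lost without any 1 of the samples other than WT replicate 2 (adjusted p = 0.101, 0.082 and 0.0763 without DKO replicates 1 to 3, and 0.0644 and 0.0835 without WT replicates 1 and 3; 0.0172 to 0.174 over all). The call of Nfya was also lost with quantile normalisation (adjusted p = 0.157), cyclic loess (0.117) or either trend removed (0.174 and 0.144). Nfya passed under 9 of 19 alternatives. Nploc4, a cofactor of the Vcp segregase, differed by 0.25 (adjusted p = 0.126). Nfe2l1, which drives proteasome genes when proteasome activity is short, differed by -0.06 (adjusted p = 0.749). Of 12 genes named for ubiquitin and its activating enzymes 5 were matched, all of them activating enzymes of ubiquitin or its relatives, and of these 4 rose and 1 fell: Uba6 by 0.73 (adjusted p = 0.00322), Uba3 by 0.63 (0.00317), Uba7 by 0.45 (0.00887), Nae1 by 0.48 (0.0216) and Sae1, for SUMO, at -0.60 (0.011). The call of Nae1 was lost without DKO replicate 3 (adjusted p = 0.0719), WT replicate 2 (0.0567) or WT replicate 3 (0.0665), with 0.0141 as its lowest.

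Downstream, of 14 measured genes of MHC class I antigen processing 4 rose, 1 fell and 9 did not pass. The peptide trimming enzymes Erap1 and Tpp2 rose by 0.84 and 0.70 (adjusted p = 0.00059 and 0.00397) and the chaperone gene Canx by 0.38 (0.0282), the fourth rise being B2m (0.33, 0.0314). The peptidase gene Thop1 fell by 0.40 (adjusted p = 0.0256). The calls of Canx and Thop1 were lost without DKO replicate 1 (adjusted p = 0.108 and 0.0646), DKO replicate 3 (0.105 and 0.102) and WT replicate 3 (0.0627 and 0.0639), that of Canx also without WT replicate 1 (0.0694) and that of Thop1 without WT replicate 2 (0.0673), in ranges of 0.00992 to 0.283 and 0.016 to 0.102. Both were also lost with either trend removed (adjusted p = 0.0625 and 0.283 for Canx, 0.0578 and 0.059 for Thop1). The call of B2m was lost without DKO replicates 1 or 3 (adjusted p = 0.121 and 0.097) or any 1 of WT replicates 1 to 3 (0.0551, 0.055 and 0.0815), with 0.00555 as its lowest. The peptide transporter genes Tap1 and Tap2, which neighbour Psmb9 and Psmb8 in the RefSeq order, did not pass, at 0.17 and -0.21 (adjusted p = 0.379 and 0.238). Of 13 measured genes that carry interferon signals to these loci 4 rose, 1 fell and 8 did not pass. Jak2, Ifngr1, Ifnar1 and Jak1 rose by 0.66, 0.47, 0.42 and 0.39 (adjusted p = 0.00422, 0.00693, 0.0175 and 0.0177), and Irf8, a factor of myeloid and lymphoid cells, was at -0.87 (0.00173). The call of Ifnar1 was lost without DKO replicate 2 (0.069), DKO replicate 3 (0.0742) or WT replicate 3 (0.0517), with 0.0108 as its lowest, and that of Jak1 without DKO replicates 1 or 2 (0.0534 and 0.0709) or WT replicate 3 (0.0569) and with either trend removed (0.28 and 0.10, adjusted p = 0.0716 and 0.547), with 0.00871 as its lowest. The median differences of these lists were 0.04, 0.48, 0.14 and 0.22, in the order given from Nfe2l2 on. They stand beside -0.04 over all genes and 0.12 over the strongest 10%.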

How the data were processed

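RNA of 6 samples of mouse KSL cells was amplified and read on Mouse Gene 1.0 ST arrays of Affymetrix, 1 sample per array, per the labels' protocols. The deposited values are log2 signals per probe set. RMA is named in the titles and preliminary MAS 5.0 normalisation in the series text. Values lay between 1.25 and 13.7, and array medians between 5.88 and 5.91. The submitters' processing notes name Affymetrix Expression Console 1.0, with the genome build not given there.

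Of 35556 probe sets, 21789 had exactly 1 symbol in GEO's platform annotation, 1621 several and 12146 none. For each gene its brightest probe set on average was kept, which left 19938 genes. They were compared as DKO minus WT with limma 3.58.1 in R 4.3.3 (lmFit, eBayes, two-sided), with Benjamini-Hochberg adjustment over all 19938 genes and a threshold of 0.05. No dim gene was removed. The script was tested on simulated data. Values in every sample are given for Psmb5 to Psmb10 and, in each letter group, for up to 4 called genes per direction with the largest difference, and, where a group had no called gene, for the 2 genes with the smallest p. Companion lists name up to 4 genes with the smallest p. Values of Psmd11, Psmd4, Psmd7, Psmd14, Psma2, Psma4, Psmb3, Psmc6, Psme3, Sem1, Ubqln4, Nfe2l1, Nae1, B2m, Jak1, Tap1 and Tap2 were added outside the rule, with their values known. The members, lists and motifs were chosen with earlier results of these data known. Replicate numbers did not pair the samples, since deviations from the group means correlated at -0.01, -0.10 and -0.04 between same-numbered samples. Alternatives changed the normalisation, the removal of a trend over signal or over signal and gene span, the dim-gene filter, the choice of probe set, the variance model, the replicate block, the threshold (0.01 or 0.1) and the samples kept. Tests compare samples, and whether DKO samples were pooled is not stated. The number of arrays limits the precision.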

Additional observations from a re-analysis of the deposited data

How the results depend on the processing

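Of the 17 called genes of the 50, Psma3, Psmd10, Psme4, Psmd13, Psmd3, Psmg3 and Psmc3ip passed with the same sign under all 19 alternatives other than the thresholds, and the other 10 missed the threshold under at least 1. Rises of the 48 proteasome genes (12) became 7 with the trend over signal removed, 6 with the trend over signal and gene span removed (an alternative chosen after seeing the data) and 4 at a threshold of 0.01. Psmd14 joined the rises without the dimmest 25% or 50% of genes, with a trended and robust variance and at a threshold of 0.1. Psmb3 joined them when its dimmer probe set stood for the gene. Falls (3) became 7 with quantile normalisation and with cyclic loess, 6 and 5 with the trends removed, and 5 without the dimmest 25% or 50% of genes, with a trended and robust variance or at a threshold of 0.1. Leaving out 1 sample gave 4 to 11 rises and 3 to 4 falls. The replicate block, for numbers that did not pair the samples, gave 10 rises and 3 falls. The cause of these shifts was not tested.

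The median difference of the 48 (0.07) turned to -0.03 with quantile normalisation and -0.02 with the trend over signal removed. Of single members, those whose sign turned had not passed. With quantile normalisation the turned values were Psmb10 at -0.10, Psmb2 at -0.066, Psmb3 at -0.0054, Psmc4 at -0.029 and Psmc6 at -0.056. With cyclic loess they were Psmb10 at -0.078, Psmb2 at -0.045, Psmc4 at -0.0019, Psmc6 at -0.035 and Psmf1 at 0.0062. With the trend over signal removed they were Psmb10 at -0.092, Psmb2 at -0.082, Psmb3 at -0.021, Psmc1 at -0.014, Psmc4 at -0.018, Psmc6 at -0.067 and Psmf1 at 0.031, and with the trend over signal and span removed Psmb2 at -0.13, Psmc1 at -0.0044, Psmc6 at -0.046 and Psmf1 at 0.0047. Leaving out 1 sample moved Psma8 from -0.040 to 0.19, Psmb1 from -0.082 to 0.012, Psmb10 from -0.0062 to 0.056, Psmb2 from -0.022 to 0.13, Psmb8 from -0.10 to 0.022, Psmc2 from -0.17 to 0.0053, Psmc6 from -0.034 to 0.16 and Psmf1 from -0.17 to 0.031.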
